A study of Homo sapiens with 12 samples.

Results

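Cytosolic ribosomal protein genes encode the proteins that, with ribosomal RNA, build the small and large subunits of the ribosome. The family, with RPS12 to be set against the rest, was picked with earlier results of these data known. Members were then taken by name from the rows of the authors' normalized table. The symbol had to be RPS or RPL followed by a number, by A, or by P and a digit. An A, X or L could follow the number. This gave 83 gene IDs with 80 symbols, 34 of the small and 49 of the large subunit, out of 26231 gene IDs in that table. The study measured RNA of the ALDH+ fraction of 697(EU3) cells, an established human B-cell precursor leukaemia line, sorted by a fluorescent substrate for high aldehyde dehydrogenase activity. Its SH2 cells carry an inducible shRNA with an eGFP reporter, and the shRNA targets IGF2BP1, which binds and stabilises mRNAs and is made mainly before birth and in tumours. SH2 cells were measured untreated and after doxycycline in sets 1 to 4 (n = 4 per group), and the treated cells were sorted for the reporter. In treated against untreated SH2 cells, the drug, the shRNA and this reporter sort therefore cannot be told apart. Cells labelled as the control for doxycycline came from sets 2 and 4, without and with the drug (2 libraries each). Whether they hold the scrambled shRNA named in the protocol is not stated in the labels, and both kinds of cell were ALDH+ sorted. In bulk RNA, fewer cells of a type and less RNA per cell cannot be told apart. Per the design text each set was a new sort with its own doxycycline treatment.

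Each ribosome holds 1 copy of nearly every ribosomal protein, apart from the stalk proteins of the large subunit. Their mRNAs are among the most abundant of a growing cell, and most begin with a cytosine followed by a run of pyrimidines, the terminal oligopyrimidine (TOP) tract, through which mTOR and LARP1 control their translation. Ribosomal proteins that are not built into ribosomes are degraded, and RPL5 and RPL11 with the 5S RNA can then bind the ubiquitin ligase MDM2.

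The starts of 5 members are shown. RPS12 and RPS7 were lower in every treated than in every untreated SH2 library, as were 2.03% of all genes tested. RPS7 and RPS26 were lower in every SH2 than in every control library. So were RPL13, RPL15 and RPL26, and 8.59% of all genes tested. RPS14 and RPL36 did not pass the test in any comparison. Each line gives 15 bases before and 15 bases from the RefSeq transcript start (GRCh38.p14), and the capitals mark the unbroken pyrimidine run that begins with C at the start.
RPS12 (chr6:132814554-132814583, plus strand): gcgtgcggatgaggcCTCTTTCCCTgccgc
RPS14 (chr5:150449725-150449754, minus strand): ccgccccctcccactCTCTCTTTCCggtgt
RPL36 (chr19:5690280-5690309, plus strand): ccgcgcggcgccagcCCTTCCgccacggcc
RPS7 (chr2:3575245-3575274, plus strand): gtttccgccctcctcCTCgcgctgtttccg
RPS26 (chr12:56041903-56041932, plus strand): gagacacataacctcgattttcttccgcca
RPS12 and RPS14 both began with a run of 10 pyrimidines. RPL26, RPL13 and RPL15, whose starts are not shown, had runs of 12, 2 and 0. The 5 starts are examples, and whether the start goes with a change was not tested. A start of this kind, C followed by at least 4 pyrimidines on the transcribed strand, was present in 41 of the 62 member symbols found in the RefSeq table (66.1%), against 4.07% of all 35116 starts of that table. It was as common in small subunit members (16 of 24) as in large subunit members (25 of 38). The starts are annotated ones and were not measured in these cells.

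The members took 21.2% to 32.5% of the 2210291 to 3370952 reads assigned to genes per library. Of the 83 gene IDs 76 passed the filter on low counts and were tested, 30 of the small and 46 of the large subunit, and 67 of these had a mean level of at least 1000 CPM (assigned reads of a gene relative to a library size scaled by TMM), against 126 of all 11968 genes tested. B-lineage markers were present (10 of 10, summed 1276 to 3384 CPM of assigned reads), while 7 myeloid markers summed to 1.14 to 8.44 CPM. The 7 T-cell markers summed to 571 and 622 CPM in the untreated and treated control libraries of set 2, and to 14.5 to 105 CPM in the other 10 libraries. CD3D, a chain of the T-cell receptor complex, stood at 221 and 232 CPM in those control libraries and at 2.70 to 18.7 CPM elsewhere. The 3 NK markers summed to 3.67 to 7.70 CPM in untreated and 1.34 to 2.97 CPM in treated SH2 cells. In control cells they summed to 4.98 to 14.1 CPM untreated and 6.14 to 6.81 CPM treated. They had only 184 counts in all 12 libraries. In set 4 KLRD1, 1 of these 3, was higher in the treated SH2 library (1.34 against 0.60 CPM). The part of all these markers in the results was not tested. Results that use the control cells are also given without both control libraries of set 2. HTSeq lists reads that aligned to more than one place apart from the genes. That line made up 42.2% to 63.8% of the HTSeq total per library (assigned reads plus the 5 summary lines). Whether a read is entered there once or once per alignment is not given, so percentages of this total may not be exact shares of reads. Members with near-identical pseudogenes can lose reads in this way, so the levels below are those of uniquely assigned reads. The 3 libraries with the lowest member shares were both SH2 libraries of set 3 and the treated SH2 library of set 4, at 21.2% to 23.6%, and reads outside genes were 6.96% to 7.73% there. In the other 9 libraries the shares were 27.6% to 32.5% and reads outside genes 3.25% to 5.26%. The part of this difference in the results was not tested.

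**Figure D1:**
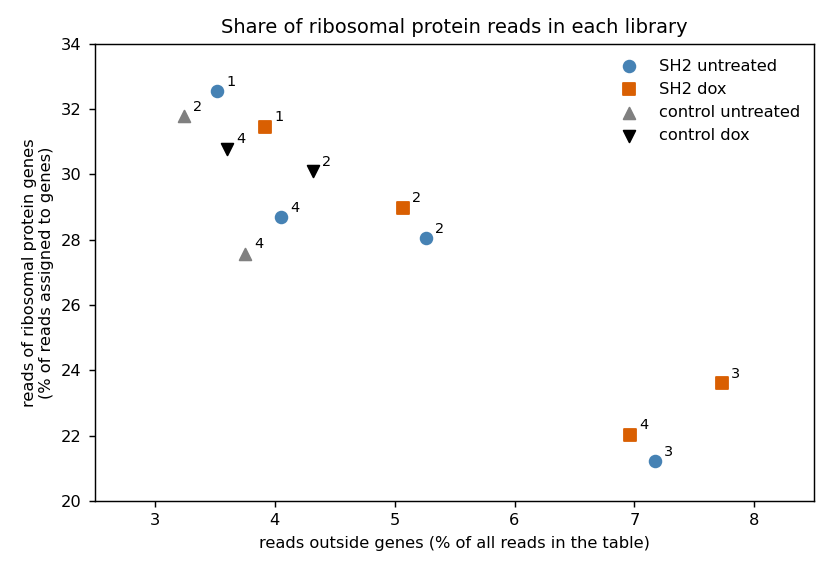
Reads of ribosomal protein genes as a percentage of reads assigned to genes (vertical axis) against reads outside genes as a percentage of the HTSeq total (horizontal axis), 1 point per library, numbered by set, with a symbol per group. The 3 libraries at the lower right are both SH2 libraries of set 3 and the treated SH2 library of set 4, with shares of 21.2% to 23.6%.

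The kit reads 1 site next to the poly(A) tail of each transcript, so levels are not divided by gene length. By mean level RPL27A, RPL37A and RPS27A, which encodes a small subunit protein fused to ubiquitin, were the highest. RPL27A ran from 19782 to 40699 CPM. The lowest tested members were RPSA, RPS27L and RPL39L. RPSA, the small subunit protein also known as the laminin receptor, ran from 127 to 444 CPM. The paralogues stood well below their partners in every library: RPL39L ran from 12.7 to 37.3 CPM and RPL39 from 2153 to 5892, and RPS27L from 60.7 to 142 CPM and RPS27 from 1046 to 3427. RPL3L, a muscle paralogue, had 5 counts in all 12 libraries and its partner RPL3 2223 to 7572 CPM. The 7 gene IDs that did not pass the filter were RPL3L, RPL17 (62 counts), a second RPL41 ID annotated as a processed pseudogene (40), the pseudogene RPS10L (2) and 3 RPS9 IDs (7, 3 and 1 counts). These 3 RPS9 IDs are not on the primary assembly of GENCODE v29. RPS9 (ENSG00000170889), RPS18 and RPL10L had 0 counts in the count tables and are not members by the rule. The levels of RPS9, RPS18 and RPL17 mRNA cannot be read from these counts.

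IGF2BP1, the target of the shRNA, was lower in treated SH2 cells in 4 of 4 sets (log2 fold change -0.99 ± 0.43, SE; edgeR adjusted p = 0.983). Among the tested members, RPS12 fell with doxycycline in SH2 cells and no other passed the threshold. RPS12 encodes a protein of the head of the small subunit (chromosome 6, 132814441 to 132817564). Untreated SH2 cells had 10647, 8425, 8444 and 7816 CPM in sets 1 to 4, and treated SH2 cells 1548, 1756, 1730 and 597. Every treated library lay below every untreated one, and the treated library of set 4 was the lowest. Control cells had 10227 and 6677 CPM untreated and 12771 and 7525 treated in sets 2 and 4, so the treated SH2 libraries were also below all control libraries. The log2 fold change was -2.65 ± 0.35 (SE; 6.27-fold lower; edgeR adjusted p = 0.0211). This was 1 of 76 members tested, and 0.0167% of all genes tested were called, all lower. Among the 126 genes of at least 1000 CPM, 67 of which are members, 0.794% were called, which is RPS12 itself. Without the treated library of set 4 the log2 fold change was -2.40 (adjusted p = 0.0101). Leaving out 1 of 4 other libraries ended the call: untreated set 1 (-2.55, adjusted p = 0.0851), untreated set 4 (-2.70, 0.0859), treated set 2 (-2.77, 0.128) and treated set 3 (-2.77, 0.126). So did fitting SH2 libraries without the control cells (-2.65, 0.0937). Fitting without both control libraries of set 2 also ended it (-2.65, 0.094). Blocking on the set, the only fit that uses the pairing of untreated and treated libraries, gave -2.75 (0.00034).

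**Figure D2:**
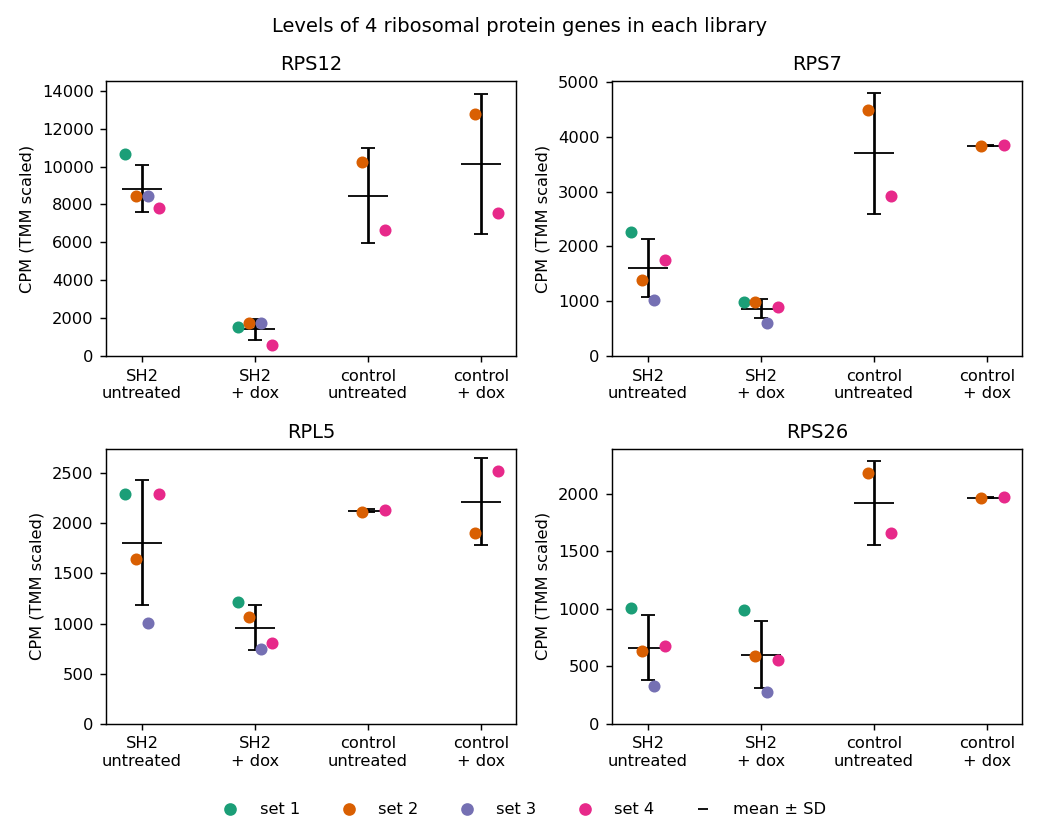
Level in CPM (vertical axes, starting at 0) of RPS12, RPS7, RPL5 and RPS26 in each library, coloured by set, with the mean and SD of each group (n = 4 for SH2, n = 2 for control cells). RPS12 lies at 597 to 1756 CPM in treated SH2 libraries and at 6677 CPM or more in the others.

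The remaining 75 tested members lay close to 0 in the same comparison. Their median log2 fold change was -0.05, with 43 below 0, while the median of all genes tested was 0.03 and 46.4% of them were below 0. The lowest after RPS12 was RPL5 at -0.91 and the highest was RPS27A at 0.25. Over sets, 6 of the 76 members were lower with doxycycline in 4 of 4 (RPS12, RPS7, RPL5, RPS26, RPL15 and RPL6) and 3 were higher in 4 of 4 (RPL27A, RPL34 and RPL36). The share of all genes tested with the same direction in 4 of 4 sets is not given here. These counts are therefore not read as a result about the members. The 75 members did not move one way: their medians within small and large subunit were -0.03 and -0.03 in set 1, 0.19 and 0.19 in set 2, 0.29 and 0.14 in set 3 and -0.51 and -0.51 in set 4. The overall median of the 75 became 0.10, 0.05 and 0.04 without the untreated library of set 1, the treated library of set 3 and the treated library of set 4, so no direction is given for the family. Within each set the log2 change of RPS12 was below that of every other member. In set 4, where the other members were most spread (SD 0.62), it stood at -3.71, with RPS2 next at -2.43. In set 1 RPS12 was -2.78 and RPS7 next at -1.20, in set 2 -2.26 with RPS14 next at -0.69, and in set 3 -2.29 with RPL23A next at -1.05.

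**Figure D3:**
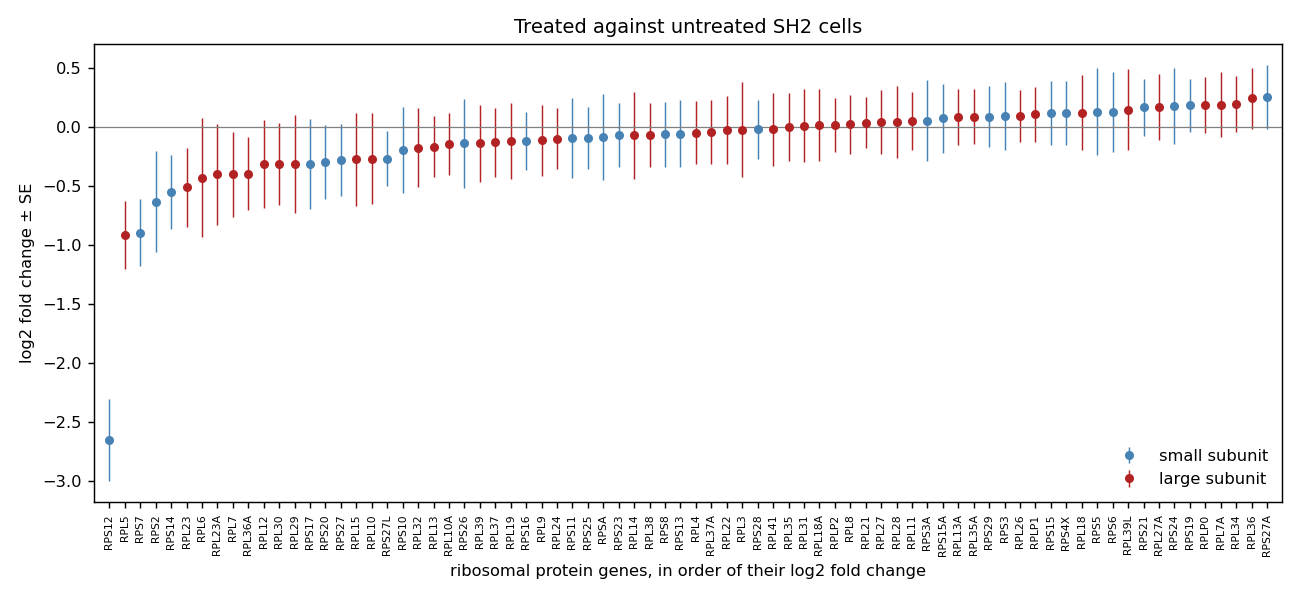
Log2 fold change with its SE (vertical axis) of the 76 tested members in treated against untreated SH2 cells, in order of the fold change, coloured by subunit. RPS12 lies at -2.65 and the other members between -0.91 and 0.25.

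**Figure D4:**
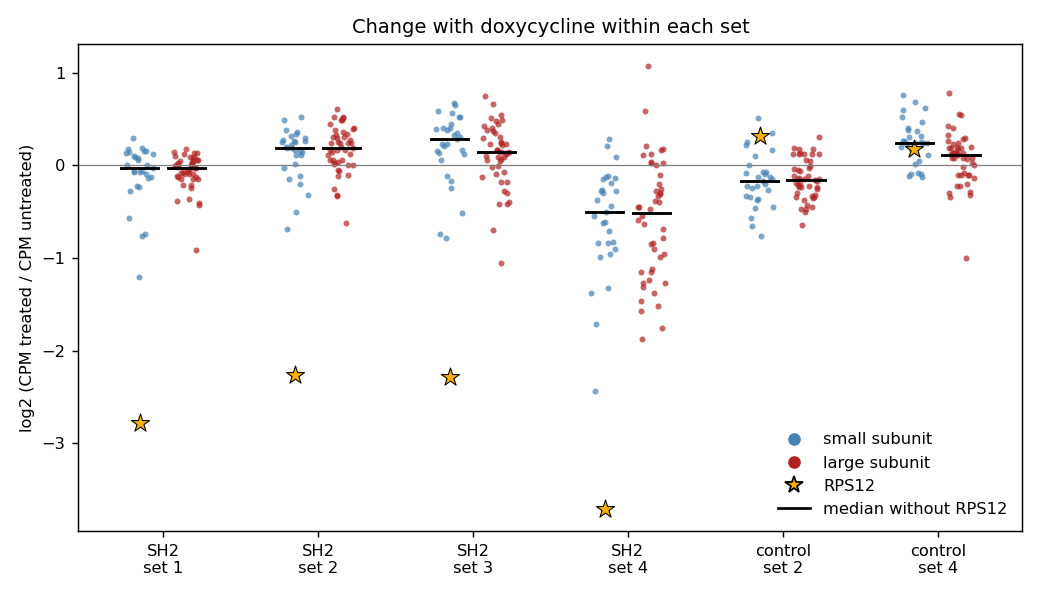
Log2 ratio of treated to untreated CPM (vertical axis) for each tested member within each set of SH2 and control cells, with points coloured by subunit, bars at the median of each subunit without RPS12, and RPS12 as a star. RPS12 lies at -2.26 to -3.71 in the SH2 sets, below every other member, and at 0.32 and 0.17 in the control sets.

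RPS12 was among the most abundant members except in treated SH2 cells. Within the members of a library, where no scaling between libraries enters, RPS12 ranked 4 to 9 by counts in the 8 untreated SH2 and control libraries and 38 to 66 in the 4 treated SH2 libraries. It gave 78.0, 73.5, 113 and 68.4 reads per 1000 reads of the other small subunit members in untreated SH2 cells of sets 1 to 4, and 11.5, 14.2, 18.3 and 6.63 in treated SH2 cells. Control cells gave 77.5 and 64.7 untreated and 101 and 55.9 treated in sets 2 and 4. The treated SH2 libraries lay below all others in this ratio. Assigned reads of the pseudogenes named after RPS12 were few (0 to 12 per library, 45 in all against 221282 of RPS12). Adding all named pseudogene reads to their parents left RPS12 at a log2 fold change of -2.65, which so few reads could not move. Reads aligned to more than one place are in neither count, so whether RPS12 loses reads to pseudogenes was not tested.

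The ratio of small to large subunit reads was lower in treated SH2 cells in 4 of 4 sets when RPS12 was counted. With RPS12 the ratio went from 0.739 to 0.690 in set 1, 0.782 to 0.738 in set 2, 0.798 to 0.751 in set 3 and 0.732 to 0.697 in set 4. Without RPS12 it went from 0.685 to 0.682, 0.729 to 0.727, 0.717 to 0.738 and 0.685 to 0.692, lower in sets 1 and 2 and higher in sets 3 and 4. In control cells it was higher with doxycycline in both sets, also without RPS12, at 0.690 and 0.682 untreated against 0.737 and 0.733 treated. By fold change the subunits lay side by side in SH2 cells, with 18 of 30 small subunit members below 0 (median -0.07) and 26 of 46 large subunit members (median -0.04). These ratios and medians are descriptions, and no test was made of them.

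**Figure D5:**
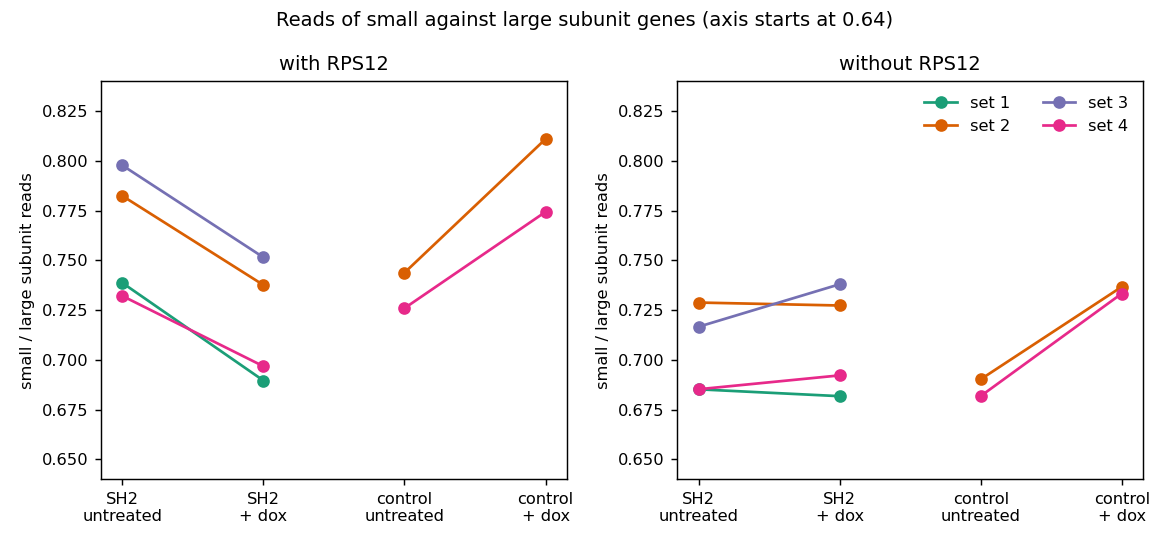
Ratio of the summed reads of small to large subunit members (vertical axis, starting at 0.64) in each library, with lines joining untreated and treated libraries of a set, counted with RPS12 on the left and without it on the right. The SH2 lines go down in all 4 sets on the left, and on the right they run between 0.682 and 0.738 with no common direction.

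Among small subunit members, RPS7 and RPS14 had the next smallest p-values after RPS12. RPS7, which takes part in early small subunit assembly and can bind MDM2, had 2264, 1392, 1029 and 1744 CPM in untreated and 982, 980, 600 and 897 CPM in treated SH2 cells of sets 1 to 4. Its groups did not overlap, as for 2 of 76 members (RPS12 and RPS7, both lower), while 2.03% of all genes tested had non-overlapping groups in this direction and 3.41% in either. Its log2 fold change of -0.89 ± 0.28 (SE) had an unadjusted edgeR p of 0.00693 and missed the threshold (adjusted p = 0.953). RPS14, a protein of the platform of the small subunit, had -0.55 ± 0.31 (adjusted p = 0.983) and was lower in 3 of 4 sets. RPS2, at the entry side of the mRNA channel, had -0.63 ± 0.43 (adjusted p = 0.983), and -0.33 without the treated library of set 4. RPS6, the substrate of S6 kinase, had 0.13 ± 0.34, RPS19, the gene most often mutated in Diamond-Blackfan anaemia, 0.18 ± 0.22, and RPSA -0.09 ± 0.36. RPS26 had -0.14 ± 0.38, RPS27 -0.28 ± 0.31 and RPS27L -0.27 ± 0.24.

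Among large subunit members, RPL5 had the smallest p-value. RPL5, which binds the 5S RNA, had 2295, 1639, 1001 and 2293 CPM in untreated and 1218, 1066, 750 and 804 CPM in treated SH2 cells of sets 1 to 4. It was lower in 4 of 4 sets, but the untreated library of set 3 lay below the treated libraries of sets 1 and 2. Its log2 fold change was -0.91 ± 0.29 (SE), and edgeR gave an adjusted p of 0.953 (unadjusted 0.00682). RPL11, its partner in the 5S particle, had 0.05 ± 0.25. RPL23, on the face of the large subunit that meets the small one, had -0.51 ± 0.33 (adjusted p = 0.983). The stalk proteins RPLP0, RPLP1 and RPLP2, which recruit the elongation factors, had 0.19 ± 0.24, 0.11 ± 0.23 and 0.02 ± 0.23. RPL22 had -0.03 ± 0.29, RPL41 -0.02 ± 0.31, RPL39 -0.14 ± 0.33 and its paralogue RPL39L 0.15 ± 0.34. RPL3 had -0.02 ± 0.40, and of the similarly named but unrelated pairs RPL7 and RPL7A had -0.40 ± 0.36 and 0.19 ± 0.28, and RPL10 and RPL10A -0.27 ± 0.38 and -0.14 ± 0.26.

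In control cells with against without doxycycline, no member passed the threshold. With 2 libraries per group and the differences from SH2 cells given below, this does not show what doxycycline alone changes in SH2 cells. By edgeR 0 of 76 were called and 0 had an unadjusted p under 0.05, and DESeq2 and limma called 0, while 0% of all genes tested were called. The median log2 fold change was 0.02, with 34 of 76 below 0, beside 0.01 for all genes tested. The smallest p-values belonged to RPS27A (0.49 ± 0.39), RPL23A (-0.72 ± 0.61), RPS19 (0.35 ± 0.32) and RPL37A (0.42 ± 0.38), each with an edgeR adjusted p of 1. RPS12 had 0.26 ± 0.46 (adjusted p = 1), at -0.17 without the treated library of set 2 and 0.17 without both libraries of set 2. Members as a whole were mostly lower in set 2 (56 of 75 without RPS12) and mostly higher in set 4 (20 of 75 lower).

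The response of RPS12 differed between SH2 and control cells by a log2 value of -2.91 ± 0.58 (SE). The edgeR fit gave it an unadjusted p of 0.00019 and an adjusted p of 1 over all genes, where 0% of genes were called. Of 9 alternatives other than leaving out single libraries, 3 called it: blocking on the set (-2.99, adjusted p = 0.0451), the Wald test of DESeq2 (-2.91, 0.00354) and no filter on low counts (-2.96, 0.00182). The other 6 did not, among them limma on the deposited table (-2.99, adjusted p = 1) and the edgeR fit without both control libraries of set 2 (-2.83, adjusted p = 1). No other member had an unadjusted p under 0.05 in the edgeR fit. RPL5 followed with -0.97 ± 0.50, RPS7 with -0.95 ± 0.49 and RPS14 with -0.74 ± 0.54 (adjusted p of 1 for each). Both responses were measured within the same fit, and the control arm has 2 libraries per group.

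SH2 and control cells differed in RPS7 and RPS26 before any doxycycline. They also differed in IGF2BP1 itself, which stood at 21.7 to 39.2 CPM in untreated SH2 cells and at 0 to 1.42 CPM in the 4 control libraries. The labels give both as the 697(EU3) line. With these IGF2BP1 levels and the T-cell markers of control set 2, whether they are the same cells apart from the shRNA was not tested, so differences between SH2 and control cells are differences between these libraries as labelled. RPS7 stood at 1029 to 2264 CPM in untreated SH2 cells and at 4481 and 2911 in untreated control cells, a log2 difference of -1.20 ± 0.33 (SE, edgeR adjusted p = 0.04). RPS26, which lies at the exit of the mRNA channel, had 1010, 637, 327 and 679 CPM in untreated SH2 cells and 2182 and 1663 in untreated control cells, a log2 difference of -1.54 ± 0.44 (adjusted p = 0.0479). These 2 of 76 members were called lower and 0 higher. Of the 75 tested members other than RPS12, 51 were below 0 (median -0.16), beside 48.3% of all genes tested (median 0.03). Without both control libraries of set 2 the count was 42 of 76 (median -0.03). No test was made of these counts. Of all genes tested 4.9% were called lower and 7.84% in either direction. Of the genes of at least 1000 CPM, which include these 2 members, 3.97% were called. Neither call held without the untreated control library of set 2, where RPS7 was -0.86 (adjusted p = 0.442) and RPS26 -1.33 (0.338), nor without that of set 4 (-1.47, 0.0658, and -1.71, 0.117). Without both control libraries of set 2 no member was called by edgeR, with RPS7 at -0.86 (adjusted p = 0.49) and RPS26 at -1.33 (0.379). Leaving out untreated SH2 set 2, 3 or 4, treated SH2 set 2 or either treated control library also ended both calls, at adjusted p-values of 0.0546 to 0.098. RPS12 did not separate the untreated groups (0.06 ± 0.40, adjusted p = 0.96). Blocking on the set gave 4 called members: RPS26 (-1.55), RPS7 (-1.16), RPL29 (-1.03) and RPL15 (-0.83).

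After doxycycline 4 of 76 members were called lower and 0 higher in SH2 than in control cells. Of the 75 other than RPS12, 57 were below 0 (median -0.20), beside 47.6% of all genes tested (median 0.04). Without both control libraries of set 2 the count was 58 of 76 (median -0.26), and these counts were not tested. Of all genes tested 6.48% were called lower and 11.1% in either direction. Of the genes of at least 1000 CPM, which include these 4 members, 6.35% were called. RPS12 had a log2 difference of -2.85 ± 0.39 (SE, edgeR adjusted p = 0.000348) and RPS7 -2.15 ± 0.33 (adjusted p = 0.000884), with control cells at 3829 and 3843 CPM of RPS7. RPS26 had -1.71 ± 0.44 (adjusted p = 0.0229) and RPL5 -1.21 ± 0.34 (adjusted p = 0.0347). RPS12 and RPS7 passed without any single library, at adjusted p-values of at most 0.00776 and 0.00912. Without both control libraries of set 2 the edgeR fit called RPS12 (-2.42, adjusted p = 0.0127) and RPS7 (-2.16, 0.0133) and neither RPS26 (-1.72, 0.126) nor RPL5 (-1.40, 0.11). RPS26 missed the threshold without either treated control library (0.0972 and 0.109) or treated SH2 set 2 (0.0576). RPL5 missed it without either treated control library (0.0795 and 0.261) or treated SH2 set 2, 3 or 4 (0.0632, 0.0845 and 0.0522), and among treated libraries alone (0.0515). Blocking on the set gave 9 called members, all lower, among them RPL29 (-1.15), RPL15 (-0.98), RPL23 (-0.95), RPL13 (-0.71) and RPL6. The DESeq2 Wald test also called RPL34 higher (0.74, adjusted p = 0.0395), and the fit with no filter also called RPL6 lower (-1.10, 0.0347). Over all 8 SH2 and 4 control libraries, 5 of 76 members were lower in every SH2 library (RPS7, RPS26, RPL13, RPL15 and RPL26) and 0 were higher, beside 8.59% of all genes tested lower and 15.6% in either direction. Against the 2 control libraries of set 4 alone, 6 were lower (these and RPS27L) and 1 higher (RPL34), beside 12.9% of all genes lower and 24.7% in either direction. The comparisons before and after doxycycline use different libraries. Which other properties of the cells go with these differences was not tested.

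Genes that act with the members showed no called change with doxycycline in SH2 cells. Of 8 ribosomal protein genes outside the naming rule 8 were tested, 6 were below 0 and 0 were called (median -0.36). Among them were RPL26L1, a paralogue of RPL26 (-0.93 ± 0.46), RSL24D1, a placeholder of the assembling large subunit (-0.44 ± 0.26), and RPL7L1 (-0.39 ± 0.26). FAU, which encodes a ribosomal protein fused to a ubiquitin-like protein, had 0.37 ± 0.26. Of 21 other TOP mRNAs 19 were tested, 14 were below 0 and 0 were called (median -0.15), with EIF3H at -0.82 ± 0.30. In set 4 EIF3E, NPM1 and NACA of this list, picked after seeing the values, had log2 ratios of -2.60, -2.11 and -1.25. In set 2 these 3 genes had 0.20, 0.02 and 0.39. EEF1A1 and TPT1 were above 0 in both sets. Of 15 chaperones and loading factors of ribosomal proteins 10 were below 0 and 0 were called (median -0.26), with LTV1, a late small subunit assembly factor, at -1.45 ± 0.38 (edgeR adjusted p = 0.726). Of 14 regulators of TOP mRNAs 9 were below 0 and 0 were called (median -0.09), with LARP1 at -0.02 ± 0.23 and MTOR at 0.29 ± 0.39. Of 9 genes of the ribosomal protein surveillance route, 6 were below 0 and 0 were called (median -0.18), with MDM2 at 0.01 ± 0.36 and CDKN1A at -0.18 ± 0.38. Of all these genes LTV1, EIF3H and SESN1 (1.23 ± 0.49) had an unadjusted p under 0.05. The medians of these lists are not given by set or with libraries left out, so no direction is given for a list.

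Between SH2 and control cells some of these genes were called, beside 7.84% of all genes tested untreated and 11.1% treated. Untreated, 1 of 8 other ribosomal protein genes, 1 of 19 TOP mRNAs and 1 of 14 regulators were called. The chaperones gave 0 of 15 and the surveillance genes 1 of 9. Treated, the counts were 2, 2, 1, 0 and 1 in the same order. The called surveillance genes are not named here. No list was tested against the share of all genes. RPL22L1, a paralogue of RPL22, was lower in SH2 cells untreated (-1.24 ± 0.33, edgeR adjusted p = 0.0347) and treated (-1.44 ± 0.33, 0.0122), and RPL7L1 was lower when treated (-1.06 ± 0.31, 0.0395). RPL22 itself had 0.18 ± 0.35 in both comparisons. TPT1, a TOP mRNA, was higher in SH2 cells untreated (1.25 ± 0.33, adjusted p = 0.0322) and treated (1.61 ± 0.34, 0.00671). EIF4EBP1, a repressor of cap-dependent translation downstream of mTOR, was also higher untreated (1.27 ± 0.37, adjusted p = 0.0493) and treated (2.16 ± 0.39, 0.00292). EEF1D, an elongation factor subunit, was higher when treated (1.96 ± 0.57, edgeR adjusted p = 0.0405). It had 279 counts over all 12 libraries and 14 in the treated control libraries, so its call rests on few reads. Without both control libraries of set 2, EIF4EBP1 in treated cells was the only one of the named calls that remained (2.12 ± 0.49, edgeR adjusted p = 0.0291). The other named calls kept their direction, at edgeR adjusted p-values from 0.0677 (RPL7L1, treated, -1.36) to 0.509 (EIF4EBP1, untreated, 0.80).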

How the data were processed

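HTSeq made the deposited counts, which are whole reads for each gene. The submitters' processing notes list it with STAR, FastQC, DESeq2 and the hg38 build. Libraries were made with the QuantSeq kit, per the labels' protocols. Their versions, and which annotation was used, are not given here. The authors also deposited a normalized signal table, each column of which equals the counts times a constant: on dividing by it, 100% of values were whole (tolerance 0.01) and equal to the counts, so the count test on these reads is that on the counts. It gave the gene names and 0 of its sample columns were left out. The 5 HTSeq summary lines stayed out of library sizes and tests; reads outside genes were 3.25% to 7.73% and ambiguous reads 1.11% to 1.62%.

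Counts were fitted in R 4.3.3 with edgeR 4.0.16 (filterByExpr by group, minimum count 10, TMM, robust quasi-likelihood, 1 term per group, all 12 libraries, 11968 genes), with Benjamini-Hochberg adjustment over all genes and a threshold of 0.05. Fold changes are log2. The SE of an edgeR fold change was derived from its test, as its absolute value divided by the square root of the quasi-likelihood F value. Levels are CPM. The script was tested on simulated data. Alternatives were DESeq2 1.42.0 (size factors, Wald test), TMM without the members and their 356 named pseudogenes, no filter, the set as a block, the compared groups alone, limma 3.58.1 (pseudocount 1), pseudogene reads added, and libraries left out. Leaving out both control libraries of set 2 was chosen after seeing the data. Positions are from GENCODE v29.

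Members named are RPS12, those past the threshold, the 4 smallest p-values per comparison, the 3 highest and lowest by level, those not passing the filter, and a fixed list of paralogues and members of known role. RPS2, RPL6, RPL13, RPL15, RPL26, RPL29 and the genes that lead within 1 set were named after their values were seen. Members and lists were chosen with earlier results of these data known. Sets pair the samples: deviations from group means correlated between untreated and treated SH2 libraries of a set at 0.188 to 0.663, above the minimum of 0.1 in all 4 (over the members alone 0.0924 in set 2 and 0.226 to 0.737 in the others). The main fit has 1 term per group and leaves this pairing out, and so do the fits with libraries left out. Only the fit blocking on the set uses it. P-values measure the spread between these sorts of cells labelled as 1 line. Some genes of the lists are not reported here.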

Additional observations from a re-analysis of the deposited data

Results flagged for a closer look

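Of 33 quantities checked in both SH2 groups, 1 had a library far from the other 3 of its group. RPS27A had 7592 CPM in the treated SH2 library of set 4, against 14757 to 15934 CPM in the treated libraries of sets 1 to 3, a gap of 0.859 of the whole range. Chance alone sets apart about 1 group in 20, and 66 groups were checked.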

How the results depend on the processing

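RPS12 was lower in treated SH2 cells in all alternatives run, with log2 fold changes of -2.76 to -2.45 when no single library was left out and -2.77 to -2.40 when one was. The number of members called there was 0 when only SH2 libraries were fitted (RPS12 at -2.65), 0 to 1 with single libraries left out and 1 in the other alternatives except the next. Without both control libraries of set 2, an alternative chosen after seeing the data because of their T-cell markers, 0 members were called in SH2 cells (RPS12 at -2.65), 0 between untreated SH2 and control cells and 2 between treated cells. In control cells RPS12 ran from -0.17 to 0.61 over single libraries left out. It was negative without the treated library of set 2 (-0.17) and the untreated one of set 4 (-0.0028), and 0 members were called under all alternatives. In the interaction 1 member, RPS12, was called with the replicate block (-2.99), the DESeq2 Wald test (-2.91) and no filter on low counts (-2.96), and 0 with single libraries left out (-3.26 to -2.49). Between untreated SH2 and control cells 4 members were called with the replicate block, 1 (RPS26) in a fit on these groups alone, 0 without both SH2 libraries of set 4 and 0 to 2 with single libraries left out. Between treated cells the counts were 9 with the replicate block, 2 without both SH2 libraries of set 4 and 2 to 4 with single libraries left out. The replicate block changed no call of a member other than those given here and in the report. The small minus the large subunit median in SH2 cells was -0.03, and 0.0472 without both SH2 libraries of set 4 and -0.0488 to 0.0447 with single libraries left out. TMM without the members moved no count of calls. Members under the filter had 1 to 62 counts in all 12 libraries. Low depth was not told apart there from reads that were not assigned to these IDs. PCR copies were not separated by molecular identifiers.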
